A study of Mus musculus with 20 samples.

Results

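Follicular regulatory T (Tfr) cells of expanded T cell clones were compared with Tfr cells of singleton clones from the same mouse, in mouse spleen, using single-cell RNA libraries matched with libraries of the T cell receptor (TCR). Cells were joined to their TCR by library and cell barcode and kept where the authors had named their cluster Tfr. A clone was a set of cells of 1 mouse with the same listed CDR3α and CDR3β protein sequences, and its size was the number of such cells in the TCR table, whichever cluster they were in. Of 28192 cells with RNA, 11650 were Tfr cells and 8780 of these had a TCR. Among them 3953 belonged to expanded clones of 5 or more cells and 2972 to singletons of 1 cell, so that 6925 cells were compared. The other 1855 Tfr cells, in clones of 2 to 4 cells, were kept for the gradient over clone size.

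Bone marrow chimeras on the C57BL/6 strain were used, 5 WT and 5 mixed 564Igi mice with 1 RNA and 1 TCR library each. WT chimeras were irradiated recipients given congenic WT marrow and immunized with NP-OVA in alum at week 6. Mixed 564Igi chimeras received WT marrow mixed with marrow of 564Igi mice, which carry knocked-in heavy and light chains of a B cell receptor that binds self ribonuclear complexes, and were not immunized, so that marrow and antigen differ together between the conditions. The labels place the analysis of both at 10 weeks after irradiation, and the study's methods also describe a boost of the immunized mice. Recipients were 8 to 10 weeks and donors 6 to 8 weeks old. Donor-derived CD4+ T cells (CD45.2+, CD45.1-) positive for both CXCR5 and PD-1 were sorted, a gate that leaves out CD45.1+ cells and T cells low in either receptor.

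Tfr cells arise largely from thymic regulatory T cells, carry Foxp3 together with the follicular receptors CXCR5 and PD-1, and restrain Tfh cells and B cells in and around germinal centers. Each T cell rearranges V, D and J segments into its own α and β chain, and the CDR3 spans the joints. Cells with the same pair of CDR3 sequences are therefore usually taken as descendants of 1 founder, and the number of such cells as a measure of its expansion.

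The cluster bore its label. *Foxp3*, the lineage factor of regulatory T cells, was found in 56.0% ± 3.98 (SD, n = 10 mice) of Tfr cells against 7.20% ± 2.93 of activated Tfh cells, and *Ikzf2*, *Il2ra*, *Ctla4*, *Tnfrsf18* and *Izumo1r* were found more often in Tfr cells in 10 of 10 mice as well. These genes were among those that made the clusters, so they describe the label and do not test it. Per mouse, 42.7% to 89.4% of Tfr cells had a TCR. The lowest shares, 42.7% in WT mouse 36 and 54.1% in 564Igi mouse 34, stood apart from the 74.3% to 89.4% of the other 8 mice, and the counts of called genes and the share of expanded cells are also given without these 2 mice, a check chosen after seeing the data. The RNA libraries held 1121 to 4030 cells and 3424280 to 15241983 UMIs per mouse. Between libraries 491 cell barcodes were shared, and in 0 of these cases did both cells list the same CDR3 pair.

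The part of the Tfr compartment held by expanded clones did not differ between the conditions beyond the spread between mice. Clone size counts sampled cells, and Tfr cells with a TCR ran from 326 (564Igi mouse 24) to 1271 (564Igi mouse 13). Mice were not brought to equal cell numbers, and a singleton can be a clone of which only 1 cell was sampled. In the 564Igi mice 26.1%, 46.7% and 52.5% (lowest, median, highest) of Tfr cells with a TCR were in expanded clones, and in the WT mice 34.8%, 38.3% and 58.8%. The groups overlapped, and the means of 43.6% ± 10.9 and 42.5% ± 9.62 (SD, n = 5 each) differed by 1.10 percentage points (exact permutation test, two-sided, p = 0.881, smallest possible p 0.00794). Leaving out 1 mouse moved this difference from -1.13 (without 564Igi mouse 21) to 5.47 (without 564Igi mouse 34), and without mice 34 and 36 it was 4.42 (exact permutation test, p = 0.514). The expanded cells came from 664 clones with a median size of 9 cells, of which 274 had 5 or more Tfr cells and 27 had 20 or more. A single clone of 139 Tfr cells made up 28.3% of the expanded Tfr cells of 564Igi mouse 17, whereas the largest clone of each other mouse held 5.99% to 17.5%.

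The rearranged sequences of 2 of the largest clones show how the joints, rather than the segments alone, set a clone apart. They are printed from the first to the last codon of the CDR3, with capitals for the bases between the germline-like ends. The ends were taken as the longest start shared with at least 50% of the distinct CDR3 sequences of the same V gene and the longest end shared with at least 50% of those of the same J gene in the deposited table. The third largest clone, in 564Igi mouse 13, had all 61 of its cells with RNA in the Tfr cluster and used TRAV16 and TRAJ49 with TRBV19 and TRBJ1-2. The largest WT clone, with 57 Tfr cells in mouse 12, used TRAV4-4-DV10 and TRAJ34 with TRBV15 and TRBJ2-2. Rearranged DNA has no single place in the reference genome, and each of these 4 sequences was the only nucleotide form listed in its clone.
α of 564Igi mouse 13, 61 Tfr cells: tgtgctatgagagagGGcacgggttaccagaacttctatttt
β of 564Igi mouse 13, 61 Tfr cells: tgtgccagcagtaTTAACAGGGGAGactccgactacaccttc
α of WT mouse 12, 57 Tfr cells: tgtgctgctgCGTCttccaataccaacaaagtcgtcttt
β of WT mouse 12, 57 Tfr cells: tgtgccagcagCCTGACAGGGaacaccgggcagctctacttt

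The second largest clone, with 78 Tfr cells in 564Igi mouse 17, had a CDR3 protein pair that recurred in other mice, the only one of the 27 largest clones to do so. It was made from TRAV6-3 (GRCm38 chr14:53428711-53430377), TRAJ30 (chr14:54189866-54189924), TRBV19 (chr6:41178375-41179048) and TRBJ1-5 (chr6:41535084-41535133). The same pair was listed in 29 cells of WT mouse 23, of which 19 had RNA and all 19 were Tfr cells, and in 3 cells of 564Igi mouse 24, all 3 of them Tfr cells. The α sequence was the same in the 3 mice, with 0 bases between its germline-like ends. The β sequence differed between the mice at 2 of 42 positions, shown in capitals, so that each mouse had its own main nucleotide form of 1 protein sequence. In mouse 23 a second form was listed besides the one shown, which 96.6% of the cells had.
α of all 3 mice: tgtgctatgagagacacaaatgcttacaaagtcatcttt
β of 564Igi mouse 17: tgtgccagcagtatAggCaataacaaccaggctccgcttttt
β of WT mouse 23: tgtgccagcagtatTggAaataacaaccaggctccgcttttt
β of 564Igi mouse 24: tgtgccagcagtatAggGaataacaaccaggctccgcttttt
Over all Tfr clones, 8 of 664 expanded clones (1.205%) and 6 of 2972 singletons (0.202%) had a pair listed in more than 1 mouse. These few pairs were counted after the first was seen, and the shares are given without a test.

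Gene expression of expanded and singleton Tfr cells was compared within mice over 9979 genes. A level is the mean over the cells of a mouse of log2(corrected UMI count + 1), a difference is the expanded minus the singleton level, and the pseudocount of 1 makes differences of low genes smaller than the change in their counts. With limma on the 10 within-mouse pairs, 85 genes were higher in expanded clones (0.852% of genes tested) and 235 lower (2.35%) at a Benjamini-Hochberg adjusted p under 0.05. Most differences were small: 267 of these 320 genes differed by less than 0.1, 10 by more than 0.2, and the median over all genes tested was -0.01. In 111 of the 320 genes all 10 mice shared the direction. Without mice 34 and 36, 270 genes were called, and of the genes named below *Foxp3*, *Sh2d1a*, *Gata3*, *H2-Aa*, *Usp18*, *Fos*, *Cdk6* and *Gzmk* were no longer among them. Of the genes named below, the call of *Fos* was lost in 8 of 10 fits that left out 1 mouse. Those of *Sh2d1a*, *Cdk6* and *Gata3* were lost in 7 each, those of *Icos* and *Tnfrsf1b* in 6 each, and that of *Cd74* in 5. The calls of *H2-Aa* and *Foxp3* were lost in 4 each (*Foxp3* without WT mouse 11, 12, 23 or 36). Higher genes made up 26.6% of those called. With each cell's UMI total as a covariate within mice, 125 genes were higher and 91 lower (57.9% higher). All 320 genes kept their direction there, but only 161 of them were called again. Among the genes named below, the calls of *Icos*, *Sh2d1a*, *Gata3*, *Tnfsf11*, *Ly6e*, *Fos*, *Rps28* and *Rpl32* were lost with this covariate. Expanded cells had fewer UMIs, 3831 ± 470 against 4204 ± 537 (SD, n = 10 mice), lower in 9 of 10 mice (exact sign-flip permutation test, two-sided, adjusted p = 0.00781 over 8 measures). They also had fewer genes per cell, 1692 ± 137 against 1783 ± 141, in 10 of 10 mice (exact sign-flip permutation test, adjusted p = 0.00521).

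*Ly6a* (chr15:74994877-74998031, GRCm38), which encodes the surface protein Sca-1 of activated and interferon-exposed lymphocytes, rose most in expanded clones. Its level was 0.55, 1.72 and 2.24 (lowest, median, highest mouse) in expanded and 0.42, 1.14 and 1.64 in singleton Tfr cells, a difference of 0.45 ± 0.04 (SE, adjusted p = 1.05e-09). The ranges over mice overlapped as WT mice were lower than 564Igi mice on average in both classes, but expanded cells were higher in 10 of 10 mice. *S100a6* (chr3:90612882-90624181), a calcium-binding protein of effector T cells, was at 1.38, 1.61 and 2.10 in expanded and 0.94, 1.25 and 1.45 in singleton cells, and rose by 0.39 ± 0.03 (adjusted p = 1.05e-09) in 10 of 10 mice. It was found in 73.4% of expanded and 61.1% of singleton cells on average. Its relative *S100a11* rose by 0.21 ± 0.04 (adjusted p = 0.000372), also in 10 of 10 mice.

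The inhibitory receptors PD-1 and TIGIT rose at the level of their genes. *Pdcd1* (chr1:94038305-94052553), which encodes PD-1, was at 1.42, 1.63 and 1.85 in expanded and 0.99, 1.41 and 1.62 in singleton cells, a difference of 0.25 ± 0.03 (adjusted p = 7.46e-06) in 10 of 10 mice, among cells that had all been sorted as PD-1+. *Tigit* (chr16:43648867-43664146), an inhibitory receptor of effector regulatory T cells, was at 1.65, 1.87 and 2.13 against 1.45, 1.65 and 1.97 and rose by 0.26 ± 0.04 (adjusted p = 0.000224) in 9 of 10 mice. Of 9 inhibitory receptor genes tested, *Pdcd1* and *Tigit* were higher, *Cd96* was lower (-0.08 ± 0.01, adjusted p = 7.46e-06, 10 of 10 mice) and 6 did not pass, with a list median of 0.00 (all genes -0.01). *Lag3* was among the latter over all 10 mice (0.08 ± 0.03, adjusted p = 0.175). The plot of 8 genes by mouse shows these pairs.

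**Figure D1:**
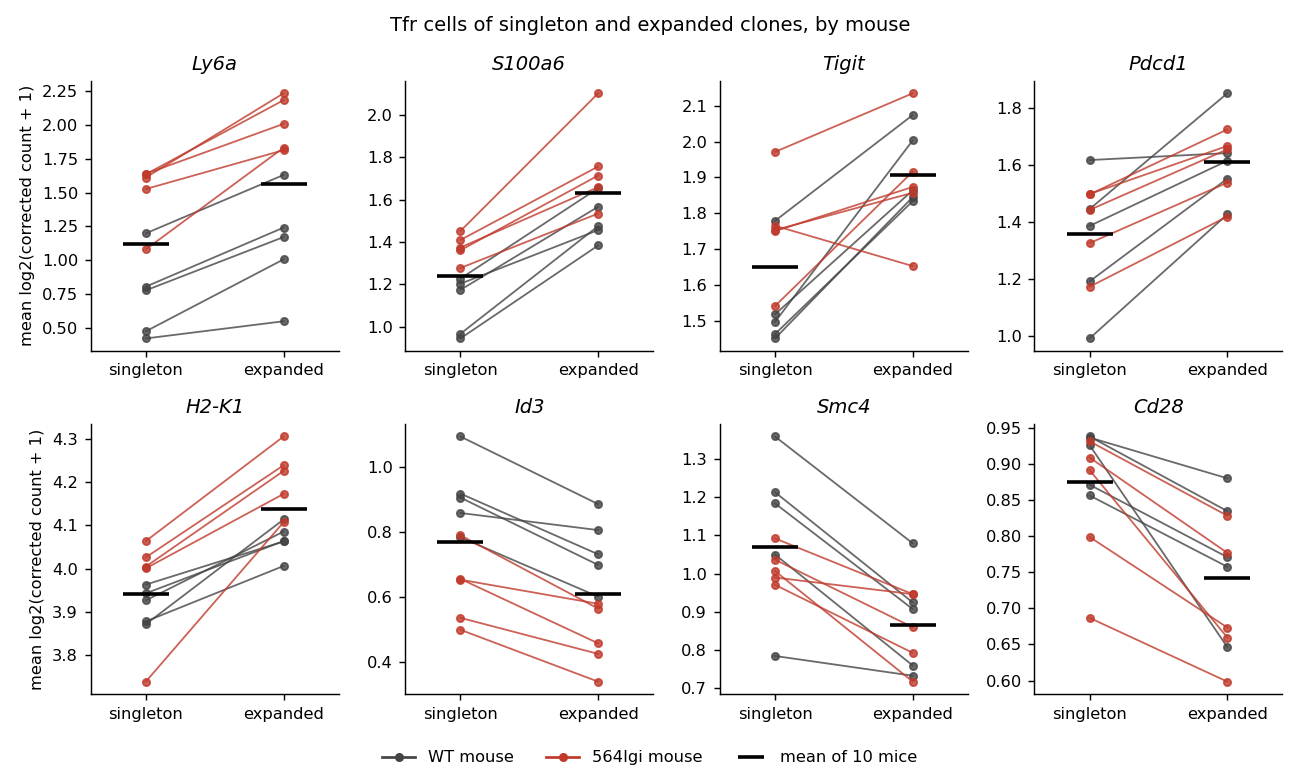
Mean log2(corrected UMI count + 1) of 8 genes in singleton (left) and expanded (right) Tfr cells, with a line for each of 5 WT mice (grey) and 5 564Igi mice (red) and a black bar for the mean of 10 mice. For *Ly6a*, *S100a6*, *Pdcd1* and *H2-K1* all 10 lines go up, for *Tigit* 9 do, and for *Id3*, *Smc4* and *Cd28* all 10 go down. The vertical axes differ between genes and do not start at 0.

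Of 13 class I antigen presentation genes tested 4 were higher, 0 were lower and 9 did not pass, and the list median was 0.05. *H2-K1* (chr17:33996017-34000347), a class I heavy chain, was at 4.01, 4.11 and 4.30 in expanded and 3.74, 3.95 and 4.06 in singleton cells and rose by 0.20 ± 0.02 (adjusted p = 3.93e-08), and *H2-D1* rose by 0.20 ± 0.02 (adjusted p = 1.94e-07), both in 10 of 10 mice. *B2m*, the light chain of every class I molecule, rose by 0.13 ± 0.03 (adjusted p = 0.00518, 10 of 10 mice). With each clone counted once 1 was higher, *H2-K1*, and *H2-D1* (0.08, adjusted p = 0.110), *B2m* (0.04, adjusted p = 0.660) and *H2-Q7* did not pass. Class I heavy chain genes are near-identical in parts and reads could be split between them, so single members are less certain than *B2m*.

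Of 19 genes of effector regulatory T cells and suppression, 5 were higher, 0 were lower and 14 did not pass (list median 0.01). Besides *Tigit*, these included *Il1r2*, a decoy receptor of interleukin-1 known from Tfr cells (0.15 ± 0.02, adjusted p = 0.000224, 9 of 10 mice), *Icos*, a costimulatory receptor (0.11 ± 0.03, adjusted p = 0.0369, 8 of 10 mice), and *Maf*, a transcription factor of follicular T cells (0.10 ± 0.02, adjusted p = 0.018, 10 of 10 mice). With each clone counted once 1 gene of this list was higher and 3 were lower, beside 121 and 137 of all 9979 genes. *Tigit*, *Il1r2*, *Icos* and *Maf* did not pass there. *Srgn*, the granule proteoglycan serglycin, rose by 0.25 ± 0.04 (adjusted p = 2.8e-05), and the long non-coding RNA *AW112010* rose by 0.25 ± 0.03 (adjusted p = 7.46e-06). Of 13 S100, galectin and annexin genes 4 were higher, 0 were lower and 9 did not pass (list median 0.02). *Anxa2*, a membrane-binding annexin, rose by 0.14 ± 0.02 (adjusted p = 0.000498) and *Crip1*, a LIM domain protein, by 0.12 ± 0.03 (adjusted p = 0.0198). Among 8 *Gimap* genes, small GTPases of lymphocyte survival, 2 were higher, *Gimap7* (0.23 ± 0.03, adjusted p = 8.16e-05) and *Gimap4* (0.18 ± 0.03, adjusted p = 0.00078), and 6 did not pass. This list and the ribosomal list below were chosen after values were seen. *AW112010*, *Crip1*, *Gimap4* and *Gimap7* did not pass with each clone counted once, while *Srgn* and *Anxa2* were called again.

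Of 20 genes of resting, memory and lymph node homing cells, 0 were higher in expanded clones, 9 were lower and 11 did not pass (list median -0.03). With each clone counted once 3 were higher and 3 lower, beside 121 and 137 of all 9979 genes. With each cell's UMI total as a covariate 1 was higher and 5 lower, beside 125 and 91 of all genes. *Ms4a4b*, a membrane protein of resting T cells, fell by 0.19 ± 0.03 (adjusted p = 7.46e-06) in 9 of 10 mice, but was at 0.08 (adjusted p = 0.387) with clones counted once. *Il7r*, the receptor of the survival cytokine interleukin-7, fell by 0.08 ± 0.02 (adjusted p = 0.00285) in 9 of 10 mice. *Tcf7*, which encodes TCF-1, did not pass (-0.03 ± 0.03, adjusted p = 0.492), but was called higher by limma with each clone counted once (0.10, adjusted p = 0.0287).

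*Id3* (chr4:136143497-136145755), an inhibitor of E protein transcription factors that holds back follicular differentiation of regulatory T cells, was at 0.34, 0.59 and 0.88 in expanded and 0.50, 0.79 and 1.09 in singleton cells. It fell by 0.16 ± 0.02 (adjusted p = 1e-06) in 10 of 10 mice. *Smc4*, a condensin subunit, was at 0.72, 0.88 and 1.08 against 0.78, 1.04 and 1.36 and fell by 0.20 ± 0.03 (adjusted p = 5.2e-06), the largest lower difference. *Pou2f2*, the transcription factor Oct-2, fell by 0.17 ± 0.02 (adjusted p = 2.92e-07) and *Cd28*, the main costimulatory receptor, by 0.13 ± 0.02 (adjusted p = 0.000201), each in 10 of 10 mice. *Rgs10*, a regulator of G protein signalling, fell by 0.14 ± 0.03 (adjusted p = 0.00566), *Nrn1*, the secreted protein neuritin, by 0.13 ± 0.02 (adjusted p = 0.0012), *Tbc1d4*, a Rab GTPase-activating protein, by 0.12 ± 0.03 (adjusted p = 0.0185), and *Prkca*, protein kinase C alpha, by 0.11 ± 0.02 (adjusted p = 0.00172). *Pou2f2*, *Cd28*, *Tbc1d4* and *Prkca* did not pass with each clone counted once, while *Id3*, *Smc4*, *Rgs10* and *Nrn1* were called again.

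Ribosomal protein genes made up 20 of the 235 lower genes. Of 97 tested, 0 were higher, 20 were lower and 77 did not pass, with a median of -0.06. Of these 20, 2 were called with clones counted once and 8 with UMIs as a covariate. *Rps28* fell by 0.11 ± 0.03 (adjusted p = 0.0217), *Rpl32* by 0.11 ± 0.02 (adjusted p = 0.0119) and *Rps24* by 0.10 ± 0.02 (adjusted p = 0.00142). The small-subunit share of raw UMIs was 9.27% ± 0.518 in expanded and 9.88% ± 0.512 in singleton cells and the large-subunit share 11.4% ± 0.724 and 12.1% ± 0.694, each lower in 10 of 10 mice (exact sign-flip permutation test, adjusted p = 0.00521 for each). The authors regressed ribosomal content out of the values, and with UMIs, heat shock score and ribosomal percent as covariates here, none of these 3 genes passed and *Rpl32* changed sign (0.02).

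Of 20 genes of TCR signalling, 0 passed in limma (list median -0.01, 5 with an unadjusted p under 0.05), and the lowest p belonged to *Nfkbia*, an inhibitor of NF-κB (0.09 ± 0.03, adjusted p = 0.101). This count turned on how clones were weighted. With each clone counted once 8 of the 20 were higher and 0 lower, among them *Nfkbia* (0.19, adjusted p = 0.00353). Of all 9979 genes 121 were higher and 137 lower in that setting. Among clones with over 50% of their cells in the Tfr cluster 0 of the 20 were higher and 8 lower. Over all genes 140 were higher and 554 lower there. Of 16 glycolysis genes 0 passed in limma as well (list median 0.00, 2 with an unadjusted p under 0.05). *Tpi1* and *Pkm*, enzymes of glycolysis, were at 0.06 ± 0.02 (adjusted p = 0.122) and 0.09 ± 0.03 (adjusted p = 0.149). Of 20 proliferation genes, *Cdk6*, a kinase of the G1 phase, was the 1 higher gene (0.04 ± 0.01, adjusted p = 0.0372), although the S phase score was higher in expanded cells of 9 of 10 mice (-0.057 ± 0.0084 against -0.065 ± 0.0075, exact sign-flip permutation test, adjusted p = 0.00938). Cells with high cycle scores had been removed by the authors. Of 10 heat shock genes *Hspa5*, the endoplasmic reticulum chaperone BiP, was the 1 higher gene (0.11 ± 0.03, adjusted p = 0.02), and of 12 immediate early genes *Fos* was the 1 lower gene (-0.02 ± 0.01, adjusted p = 0.0403). Of 20 interferon-stimulated genes, *Ly6a* and *Ly6e* (0.12 ± 0.03, adjusted p = 0.00595) were higher, *Usp18* was lower (-0.03 ± 0.01, adjusted p = 0.0143) and 17 did not pass (list median 0.00). With clones counted once *Ly6e* was lower (-0.10, adjusted p = 0.0499).

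Of 26 genes of the follicular programme, 3 were higher, 4 were lower and 19 did not pass (list median 0.00). With each clone counted once 9 were higher and 2 lower, beside 121 and 137 of all 9979 genes. Among clones with over 50% of their cells in the Tfr cluster 3 were higher and 10 lower, beside 140 and 554 of all genes. *Pdcd1*, *Cxcr3*, a chemokine receptor of inflamed tissue (0.09 ± 0.02, adjusted p = 0.00677), and *Sh2d1a*, the adaptor SAP (0.11 ± 0.03, adjusted p = 0.0434), were the higher ones. *Cxcr5*, the receptor that leads cells into follicles, and *Bcl6*, the master factor of follicular T cells, were at 0.02 ± 0.02 (adjusted p = 0.647) and 0.00 ± 0.01 (adjusted p = 0.981), with 95% confidence intervals from -0.02 to 0.06 and from -0.02 to 0.02. Of 15 costimulatory and TNF receptor family genes 2 were higher and 3 lower. *Tnfrsf1b*, which encodes TNFR2, rose by 0.07 ± 0.02 (adjusted p = 0.0249) and *Tnfsf11*, which encodes RANKL, fell by 0.06 ± 0.01 (adjusted p = 0.00423). Of 9 genes of other helper lineages, *Gata3* and *Ccr6* were lower (-0.06 ± 0.02, adjusted p = 0.0425, and -0.06 ± 0.01, adjusted p = 0.000505).

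Regulatory identity genes did not move together. Of 18 tested, 1 was higher, 5 were lower and 12 did not pass (list median -0.02). With each clone counted once 0 were higher and 9 lower, beside 121 and 137 of all 9979 genes. Among clones with over 50% of their cells in the Tfr cluster 4 were higher and 3 lower, beside 140 and 554 of all genes. These last counts are a description without a test. *Ikzf2* (chr1:69531214-69687245), the transcription factor Helios of thymic regulatory T cells, was at 1.68, 2.07 and 2.44 in expanded and 1.67, 1.87 and 2.09 in singleton cells and rose by 0.19 ± 0.04 (adjusted p = 0.00174) in 9 of 10 mice. *Foxp3* (chrX:7573644-7595245) was at 0.67, 0.83 and 1.02 against 0.79, 0.89 and 1.07 and fell by 0.10 ± 0.02 (adjusted p = 0.0182) in 8 of 10 mice. *Il2ra*, the high-affinity interleukin-2 receptor chain, fell by 0.07 ± 0.01 (adjusted p = 0.0012) and *Swap70*, a signalling adaptor, by 0.06 ± 0.01 (adjusted p = 0.00229), while *Ctla4* did not pass (-0.04 ± 0.02, adjusted p = 0.404).

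These directions depended on where the rest of the clone was. Of the 664 expanded clones, 404 had over 50% of their cells with RNA in the Tfr cluster and 260 had 50% or less there and the others in the remaining clusters. The first kind supplied 3433 of the 3953 expanded cells (86.8%) and the second 520, between 18 and 81 cells per mouse. Since clusters were made from the same genes, levels of the 2 kinds are given as a description without a test. *Foxp3* was at 0.92 ± 0.11 (SD, n = 10 mice) in clones mostly within the Tfr cluster, at 0.92 ± 0.10 in singletons and at 0.22 ± 0.17 in clones mostly outside it, where it was below the singletons in 10 of 10 mice. *Ikzf2* was at 2.15 ± 0.20, 1.88 ± 0.13 and 1.54 ± 0.27 in the same order, *Tnfrsf18*, which encodes GITR, at 1.53 ± 0.13, 1.39 ± 0.08 and 0.92 ± 0.25, and *Tnfsf8*, found in 63.5% of activated Tfh and 20.997% of Tfr cells, at 0.15 ± 0.04, 0.33 ± 0.09 and 1.18 ± 0.24. Cells of clones mostly outside the cluster were thus lower than singletons in these 3 regulatory genes, in 9 or 10 of 10 mice each, and higher in *Tnfsf8* in 10 of 10 mice. Their identity beyond the cluster name was not tested.

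Several genes depended on this split. Within clones mostly in the Tfr cluster, *Ikzf2* was above singletons by 0.28 ± 0.04 (SE) in 10 of 10 mice and *Tigit* by 0.34 ± 0.04 in 9 of 10 mice, while *Foxp3* was at a difference of 0.00 ± 0.03. These are again values without a test. *Ly6e* was at 3.36 ± 0.13 (SD) in these clones and 2.69 ± 0.12 in clones mostly outside, around the 3.15 ± 0.12 of singletons, and *Ms4a4b* was at 0.32 ± 0.13, 1.07 ± 0.30 and 0.62 ± 0.16 in that order. *Ly6a* and *S100a6* did not part in this way. *Ly6a* was at 1.52 ± 0.61 and 1.90 ± 0.29 against 1.12 ± 0.48 in singletons, and *S100a6* at 1.64 ± 0.23 and 1.603 ± 0.27 against 1.24 ± 0.18, with both kinds of clone above singletons in 10 of 10 mice.

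**Figure D2:**
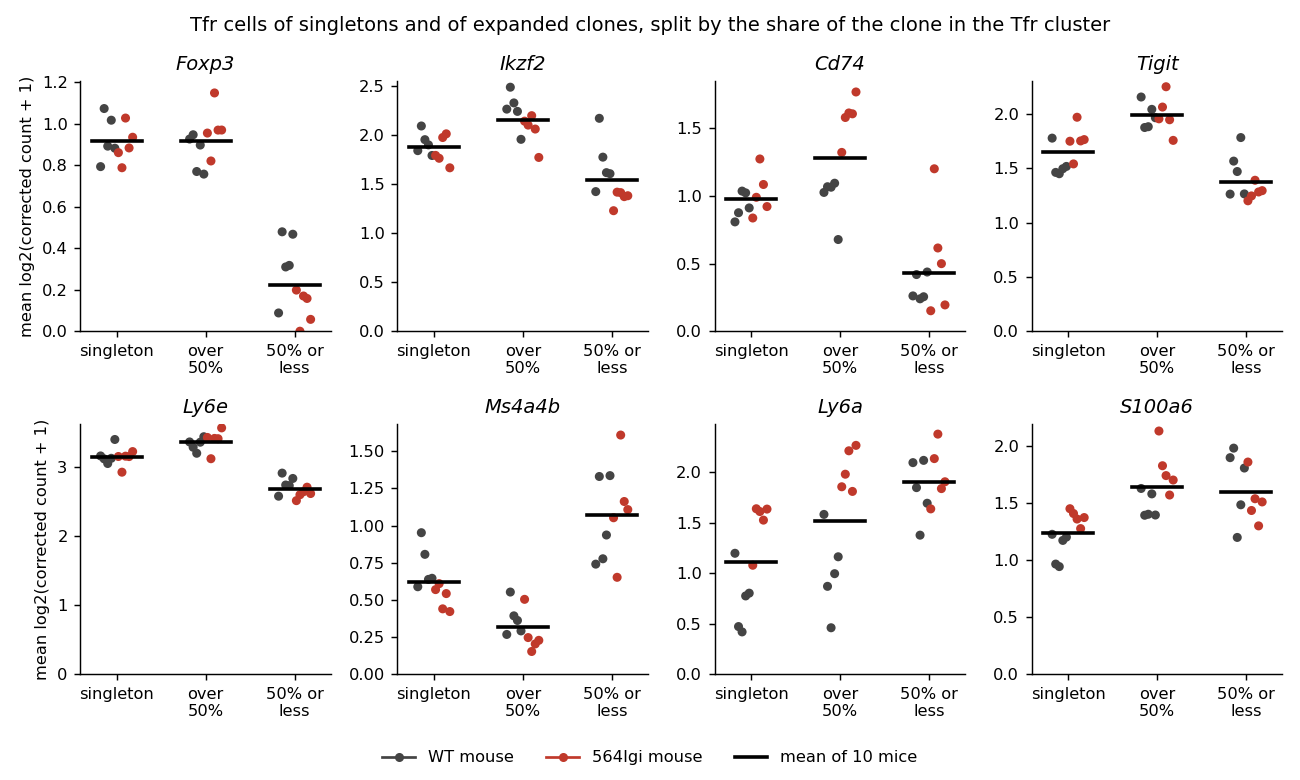
Mean log2(corrected UMI count + 1) of 8 genes in Tfr cells of singletons, of expanded clones with over 50% of their cells in the Tfr cluster and of expanded clones with 50% or less there, with a point for each of 5 WT mice (grey) and 5 564Igi mice (red) and a bar for the mean of 10 mice. *Foxp3* sits near 0.92 in the first 2 groups and at 0.22 in the last, while *Ly6a* and *S100a6* are above singletons in both kinds of expanded clone.

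Counting each clone once gave more weight to clones with few Tfr cells. Of the 664 expanded clones 169 had a single Tfr cell. With cells averaged per clone first, 121 genes were higher and 137 lower, and 106 of the 320 genes were called again, with 299 of the 320 in the same direction. Of the 24 genes with the largest differences in the main comparison, 20 kept their direction and only 10 were called again. Among these 10 were *Ly6a* (0.51 ± 0.04), *S100a6* (0.35 ± 0.04), *Pdcd1* (0.22 ± 0.04) and *Id3* (-0.14 ± 0.02). *Foxp3* fell by 0.29 ± 0.03 in 10 of 10 mice, whereas *Ikzf2* (-0.01 ± 0.04, adjusted p = 0.962), *Tigit* (0.07 ± 0.05, adjusted p = 0.556) and *Cd74* (-0.11 ± 0.04, adjusted p = 0.174) did not pass. A check added after seeing the data counted clones once but kept only those mostly in the Tfr cluster. It called 343 genes, and 22 of the same 24 genes in the same direction, *Rgs10* and *Nrn1* being the exceptions. These clones were picked by clusters made from the same genes, and singletons could not be picked in this way. The counts are therefore a description and not a test. The UMI, gene and ribosomal differences between cells did not hold when clones were counted once, since 0 of 8 measures passed the exact sign-flip permutation test after adjustment (2 with an unadjusted p under 0.05).

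For some genes the difference was graded over clone size. Against singletons, *Ly6a* differed by 0.13 ± 0.06 (SD, n = 10 mice) in clones of 2 cells, 0.20 ± 0.14 in clones of 3 to 4, 0.37 ± 0.19 in clones of 5 to 9 and 0.47 ± 0.21 in clones of 10 or more. *S100a6* went through 0.09 ± 0.12, 0.19 ± 0.19, 0.28 ± 0.20 and 0.44 ± 0.15 over the same classes. *Tigit* was at 0.01 ± 0.16 in clones of 2 cells, 0.14 ± 0.12 in clones of 3 to 4 and 0.26 ± 0.18 and 0.26 ± 0.19 in the larger ones, and *H2-K1* at -0.0045 ± 0.07, 0.08 ± 0.07, 0.14 ± 0.09 and 0.22 ± 0.09. *Id3* did not move step by step, with -0.07 ± 0.10, -0.15 ± 0.08, -0.11 ± 0.06 and -0.18 ± 0.07. Nor did *Crip1*, at 0.04 ± 0.09, 0.09 ± 0.10, 0.17 ± 0.14 and 0.08 ± 0.16, or *Ms4a4b*, at -0.08 ± 0.13, -0.14 ± 0.11, -0.21 ± 0.14 and -0.18 ± 0.14. All classes were set against the same singleton cells, and neighbouring classes were not tested against each other. In a limma test of clones of 2 to 4 cells against singletons, 23 genes were called, 8 of the 24 genes with the largest differences among them. The threshold of 5 cells divided clones of 4 cells, with 427 Tfr cells, from clones of 5 cells, with 268.

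**Figure D3:**
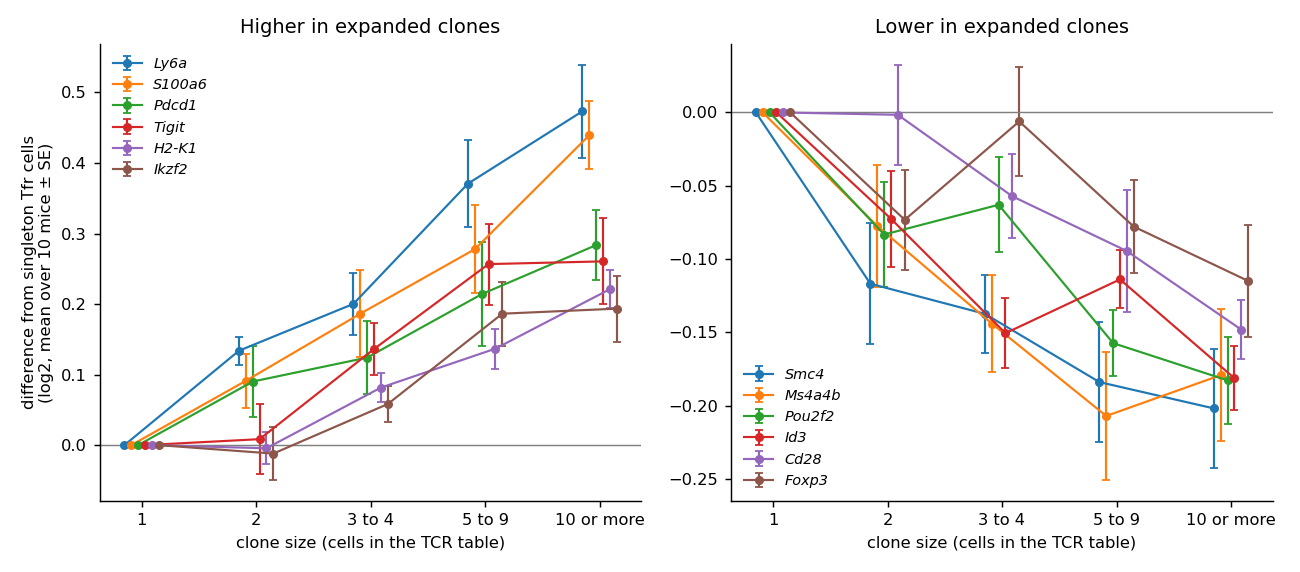
Difference from the singleton Tfr cells of the same mouse on the log2 scale (mean over 10 mice ± SE) by clone size class, for 6 genes higher (left) and 6 genes lower (right) in expanded clones. *Ly6a* and *S100a6* climb in every class up to 0.47 and 0.44 at 10 or more cells, and *Foxp3* stays within 0.12 of 0.

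The 27 clones with 20 or more Tfr cells, 17 in WT and 10 in 564Igi mice, showed how far single clones departed from the mean. *Ikzf2* and *H2-K1* were above the mean of the same mouse's singletons in 26 of 27 clones each, *S100a6* in 24, *Tigit* in 23, *Ly6a* in 22 and *Pdcd1* in 20. *Id3* was above it in 4 clones, *Smc4* in 7 and *Foxp3* in 11. *Ly6a* ranged from 0.234 to 2.999 among these clones and was above the singletons in 10 of 10 clones of 564Igi and 12 of 17 of WT mice. Clones of 1 mouse are not replicates of its condition, so these counts only describe the clones. WT mouse 12 supplied more of them than any other mouse, and most WT clones with *Ly6a* below singletons. WT mouse 36 and 564Igi mouse 24 supplied none. The clone of 139 cells had *S100a6* at 2.63, against 1.45 in singletons of its mouse, and *Ly6a* at 2.11 against 1.08, but *Pdcd1* at 1.30 against 1.33 and *Tigit* at 1.67 against 1.75. Without the largest clone of each mouse 269 genes were called, and 23 of the 24 genes with the largest differences remained called, *Tbc1d4* being the exception.

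Whether the difference itself varied between the conditions was tested on the 10 within-mouse values. The test called 11 of 9979 genes (0.11%). The largest was *Cd74*, the invariant chain that escorts MHC class II, whose level in 564Igi mice was 1.41 in expanded and 1.02 in singleton cells and in WT mice 0.91 and 0.93. The expanded minus singleton difference was 0.20 to 0.52 in the 5 564Igi mice and -0.27 to 0.15 in the 5 WT mice, with no overlap, so that the 2 conditions differed by 0.41 ± 0.06 (SE, adjusted p = 0.00116). The class II chain genes followed at low levels: *H2-Aa* by 0.06 ± 0.01 (adjusted p = 0.034), *H2-Ab1* by 0.06 ± 0.01 (adjusted p = 0.0455) and *H2-Eb1* by 0.06 ± 0.01 (adjusted p = 0.0131). Over both conditions 4 of 8 class II genes were higher in expanded clones and 0 lower, and *Cd74* rose by 0.18 ± 0.05 (adjusted p = 0.028) in 7 of 10 mice, a call lost without any 1 of the 5 564Igi mice. With each clone counted once 0 of the 8 passed in limma. *H2-Eb1* was found in 3.14% of expanded and 1.03% of singleton cells.

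Since B cells carry class II genes in large amounts, their markers stand beside this result. Of 17 B cell genes 11 were in the matrix, and among Tfr cells with a TCR *Ms4a1*, which encodes CD20, was found in 0.0114%, *Cd79a* in 0.296% and *Pax5* in 0.615%, whereas *Cd79b* was found in 5.67%, *Fcmr* in 5.34% and *Cd22* in 5.17%. The summed level of the list was 1.10 to 1.88 over mice in expanded and 1.33 to 2.18 in singleton cells, higher in expanded cells in 5 of 10 mice. *Cd83*, found in 51.7% of cells and part of this sum, is also used by activated T cells. The sum was not taken by condition, so B cell RNA was not tested beside the class II difference between conditions. Of 12 myeloid genes in the matrix 9 were found in under 1% of cells, among them the macrophage gene *Lyz2* in 0.194%, while *Cst3* and *Ctss*, which T cells also use, were found in 51.7% and 59.7%. The summed myeloid level was 1.79 to 2.18 against 1.41 to 2.04, higher in 9 of 10 mice. That of CD8 T and NK cell genes was 0.302 to 1.33 against 0.424 to 1.79, higher in 4 of 10 mice. The part of free RNA from other cells in the class II values was not tested.

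*Lag3*, an inhibitory receptor for class II, differed in the opposite sense. Expanded minus singleton values were 0.12 to 0.34 in the WT mice and -0.18 to 0.08 in the 564Igi mice, a difference of -0.26 ± 0.05 (adjusted p = 0.0131). Singletons already stood at 0.86 in 564Igi and 0.56 in WT mice, while expanded cells were at 0.81 and 0.77. *Arid5b*, a DNA-binding protein of the ARID family, was higher in expanded cells of 5 of 5 WT and 1 of 5 564Igi mice (-0.15 ± 0.03, adjusted p = 0.0303). *Gpr183*, the oxysterol receptor that positions cells at the follicle edge, was lower in expanded cells of 5 of 5 WT mice (-0.18 to -0.09) and at -0.05 to 0.13 in 564Igi mice, a difference of 0.15 ± 0.03 (adjusted p = 0.0131). *Penk*, which encodes proenkephalin, *Il7r* and *Ccr6*, a chemokine receptor, behaved alike, with differences of 0.14 ± 0.02 (adjusted p = 0.0131), 0.12 ± 0.02 (adjusted p = 0.0204) and 0.08 ± 0.02 (adjusted p = 0.0433).

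These condition effects were less firm than the common ones. Without WT mouse 36 and 564Igi mouse 34, which have the low shares of cells with a TCR, 0 genes were called by limma (590 at an unadjusted p under 0.05), although *Cd74*, *Lag3*, *Arid5b*, *Gpr183*, *Penk*, *Il7r* and *Ccr6* kept their direction in all alternatives in which they were tested. The class II chain genes *H2-Aa*, *H2-Ab1* and *H2-Eb1* were all called without 564Igi mouse 17, and only *H2-Eb1* without WT mouse 23. None of them was called without WT mouse 11, 12 or 36 or without 564Igi mouse 13, 21 or 34. The same held with each clone counted once and among clones with over 50% of their cells in the Tfr cluster. *Cd74* was called when any 1 of the 10 mice was left out (adjusted p up to 0.011), but not with each clone counted once (0.20, adjusted p = 0.804), without the limma trend (adjusted p = 0.278) or without the filter on low genes (adjusted p = 0.405). *Penk* was called in 8 of 10 cases with 1 mouse left out and *Lag3* in 7 of 10. Each condition had been normalized on its own by the authors, so differences within mice are better matched than levels between conditions. For *Ly6a* the 2 conditions differed by 0.13 ± 0.07 (adjusted p = 0.739, 95% confidence interval from -0.01 to 0.28) and for *S100a6* by -0.03 ± 0.06 (adjusted p = 0.978, from -0.16 to 0.10).

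**Figure D4:**
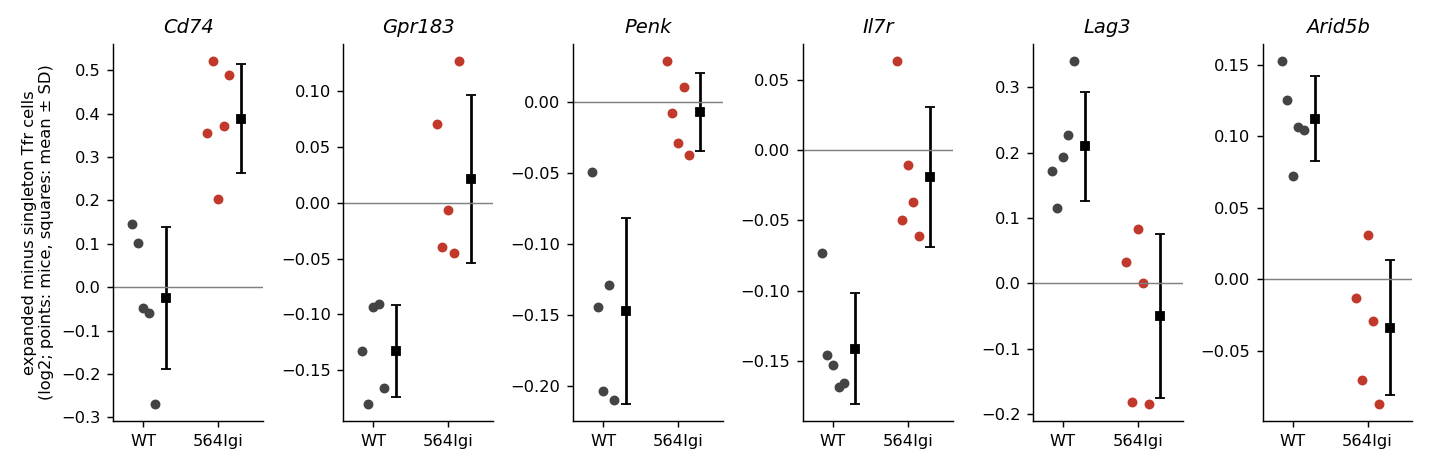
Expanded minus singleton difference on the log2 scale in Tfr cells of each of 5 WT mice (grey) and 5 564Igi mice (red) for 6 genes, with black squares and bars for the mean ± SD of each condition. For *Cd74* the 564Igi mice sit at 0.20 to 0.52 and the WT mice at -0.27 to 0.15, and for *Lag3* the WT mice sit above all 564Igi mice. The vertical axes differ between genes.

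The same comparison in activated Tfh cells, 4877 expanded and 2416 singleton cells of the same mice, called 203 genes higher (2.05% of 9886 tested) and 659 lower (6.67%). Differences between the 2 clusters, tested within mice over 10182 genes, were called for 149 (1.46%), and for 124 without mice 34 and 36. Most genes with the largest differences in Tfr cells were not called as different between the clusters. *Ly6a* differed by 0.31 ± 0.04 in activated Tfh cells against 0.45 ± 0.04 in Tfr cells (95% confidence interval of the difference from 0.03 to 0.26, adjusted p = 0.274), *S100a6* by 0.32 ± 0.06 against 0.39 ± 0.03 (interval from -0.03 to 0.17, adjusted p = 0.656) and *Id3* by -0.14 ± 0.03 against -0.16 ± 0.02 (interval from -0.09 to 0.05, adjusted p = 0.894).

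Higher in Tfr than in activated Tfh cells were the differences of *Crip1* (0.12 against -0.20, adjusted p = 9.63e-05) and of *Selplg*, the selectin ligand PSGL-1 (0.04 against -0.20, adjusted p = 8.63e-07, in 10 of 10 mice). *Vim*, the filament protein vimentin (0.00 against -0.21, adjusted p = 0.00212), and *Ly6e* (0.12 against -0.09, adjusted p = 0.00484) followed. *Cd74* was at 0.18 against -0.02 (adjusted p = 0.00626) and *Gimap7* at 0.23 against 0.05 (adjusted p = 0.0039). In the opposite direction, *Tbc1d4* was at -0.12 in Tfr and 0.20 in activated Tfh cells (adjusted p = 1.46e-05), *Tnfsf8*, the ligand CD153, at -0.04 and 0.26 (adjusted p = 6.28e-06) and *Cd5*, a surface brake on TCR signalling, at -0.04 and 0.22 (adjusted p = 7.11e-05), each in 10 of 10 mice. *Izumo1r*, the folate receptor FR4, was at -0.02 and 0.19 (adjusted p = 0.0124), and *Ctsb*, the protease cathepsin B, rose in both clusters but less in Tfr cells (0.18 and 0.39, adjusted p = 0.00318). *Crip1*, *Vim*, *Ly6e* and *Cd74* were each called in 3 of 5 other settings of this limma test (adjusted p up to 0.301 for *Cd74*). *Izumo1r* was called in 2 of 5, and in 8 of 10 fits without 1 mouse. *Selplg*, *Tbc1d4*, *Tnfsf8*, *Cd5* and *Ctsb* were called in 5 of 5. The test between clusters was not run with each clone counted once. In that setting the Tfr differences of *Cd74* (-0.11) and *Ly6e* (-0.10) changed sign and *Crip1* did not pass.

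**Figure D5:**
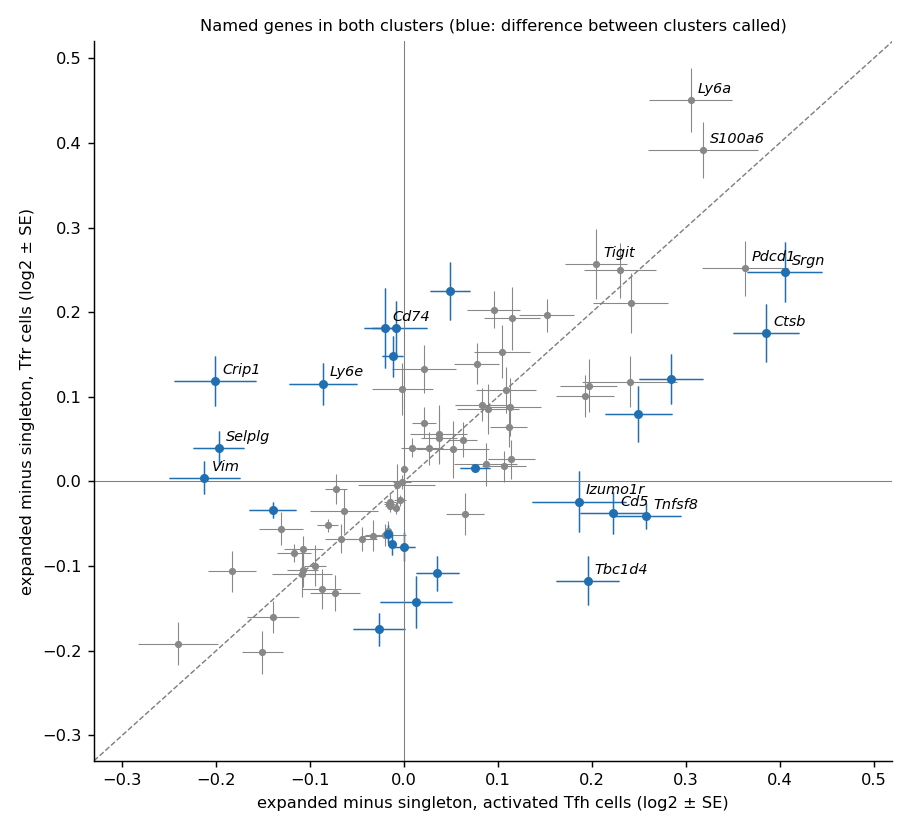
Expanded minus singleton difference on the log2 scale (± SE, 10 mice) of 87 named genes in activated Tfh cells (horizontal) and Tfr cells (vertical), with a dashed line where both are equal. Blue points are the 25 genes whose difference between the clusters was called, such as *Crip1*, *Selplg*, *Tbc1d4* and *Tnfsf8*, and *Ly6a* and *S100a6* are high on both axes.

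The TCR itself gave a measure independent of expression. Each clone was counted once. Both CDR3 lengths could be assigned for 593 of 664 expanded and 2211 of 2972 singleton clones. CDR3β of expanded Tfr clones was 14.03 ± 0.192 codons long (SD, n = 10 mice) and of singletons 13.80 ± 0.126, a difference of 0.23 codons in 9 of 10 mice (exact sign-flip permutation test, two-sided, p = 0.00977, adjusted p = 0.0146 over 3 measures). CDR3α was 13.50 ± 0.177 and 13.53 ± 0.0765 codons long (exact sign-flip permutation test, p = 0.711). A second α chain was listed for 9.15% ± 4.17 of expanded clones and 15.8% ± 5.48 of singletons, lower in 9 of 10 mice (exact sign-flip permutation test, adjusted p = 0.0146). A cell in which 1 of 2 α chains was missed takes another listed pair, so this definition itself can turn cells of a clone with 2 α chains into singletons. Among 33 V genes used by at least 2% of Tfr clones, 0 passed the exact sign-flip permutation test after adjustment, and 3 had an unadjusted p under 0.05. These were TRBV13-1 (8.41% ± 4.30 of expanded and 4.67% ± 1.46 of singleton clones), TRBV19 (7.32% ± 3.31 and 4.61% ± 2.22) and TRBV26 (5.12% ± 3.42 and 2.42% ± 1.15), all with an adjusted p of 0.365 by that exact test.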

How the data were processed

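Paired 10x gene expression and TCR libraries of sorted splenic follicular T cells from 5 WT and 5 mixed 564Igi chimeras were used. The authors processed reads with Cell Ranger 4.0.0 on GRCm38 (mm10) and filtered cells in Seurat 3.1.4 by genes, UMIs, mitochondrial and ribosomal content and cycle scores. The deposited expression values are the natural log of sctransform-corrected UMI counts plus 1, computed by the authors for each condition on its own with mitochondrial and ribosomal content, UMIs and heat shock regressed out. Corrected counts are not raw counts, so no count model was used. The deposited cell table also gives raw UMI and gene counts, percent of UMIs in mitochondrial and ribosomal genes, and cell cycle and heat shock scores per cell, as the authors computed them. The study's methods name a multiplet rate and no removal of doublets, and no doublet caller was run here.

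Here values were converted to log2(corrected count + 1) and averaged per mouse over expanded and singleton Tfr cells, with at least 20 cells of each, which all 10 mice met. Genes found in at least 1% of Tfr cells with a TCR in at least 5 mice were tested with limma 3.58.1 (R 4.3.3, trend, mouse as block, two-sided) and adjusted by Benjamini-Hochberg over all of them. The mouse pairs the classes because both come from the same animal and library. Per-mouse values were tested by exact sign flips (1024 patterns, smallest p 0.00195). Other steps used Python 3.11.15, numpy 2.4.6, pandas 2.3.3, scipy 1.17.1 and matplotlib 3.10.9. The test was checked on simulated data. Named genes were the 12 with the largest difference in each direction among called genes found in at least 10% of Tfr cells, identity markers and genes the study names for clone size or condition, up to 4 called members of each list, and 5 per direction for the other tests. Some further markers and the *Gimap* and ribosomal genes were added after values were seen. The members, lists and tests were chosen with earlier results of these data known. Positions come from GENCODE vM21, and the files write a dot for the hyphen in H2 gene names. TCR UMIs per chain were not computed, because the deposited field joins only distinct values. Chains were assigned for 94.7% of cells with 1 α and 1 β. Free RNA was not removed, and p-values measure the spread between mice. A few items are not reported here.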

Additional observations from a re-analysis of the deposited data

Results flagged for a closer look

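Single mice stood apart in 3 of 53 sets of values tested for outlying mice, about what chance gives (1 in 20 sets). For *H2-K1* the highest expanded minus singleton difference, 0.37 in 564Igi mouse 17, lay above the next, 0.24. For *Rps28* the lowest difference, -0.27 in WT mouse 23, lay below the next, -0.15. For CDR3α length the lowest mouse had a difference of -0.469 codons and the next -0.121.

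The difference between expanded and singleton Tfr cells itself differed between the conditions, by a limma test of the within-mouse values, for *Cd74* (0.41, 564Igi minus WT), *Gpr183* (0.15), *Penk* (0.14), *Il7r* (0.12), *Ccr6* (0.0775), *Lag3* (-0.26) and *Arid5b* (-0.15). It differed between Tfr and activated Tfh cells for *Crip1* (0.32, Tfr minus activated), *Selplg* (0.24), *Vim* (0.22), *Ly6e* (0.20), *Cd74* (0.20), *Tbc1d4* (-0.31), *Tnfsf8* (-0.30), *Cd5* (-0.26), *Izumo1r* (-0.21) and *Ctsb* (-0.21).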

How the results depend on the processing

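The main count of 320 genes became 304 for clones of 3 or more cells, 204 for 10 or more and 23 for clones of 2 to 4 cells. It became 764 with clone size counted over Tfr cells only and, as a description without a test, 694 for clones with over 50% of cells in Tfr. It was 157 among cells with *Foxp3* detected, 120 with percent of cells detected as the value, 171 with UMIs, heat shock and ribosomal percent as covariates, 203 without the limma trend, 86 with no filter on low genes, 10 at the stricter threshold (adjusted p under 0.01 and a difference over 0.2), 781 with mice weighted by expanded cells, 182 in WT and 49 in 564Igi mice alone, and 192 to 353 when 1 mouse was left out. It was lower by over 1.5 times without WT mouse 12 (192), 23 (202) or 11 (210) or 564Igi mouse 13 (211). In the paired design, leaving out the replicate block of mice left 12 genes called. Calls were 26.6% higher genes in the main comparison, 57.9% with UMIs as a covariate, 54.6% with mean counts per 10000, 46.9% with clones counted once and 49.1% with 3 covariates.

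The 11 genes of the condition test became 6 for clones of 3 or more cells, 4 for 10 or more, 1 without the trend, 0 in limma without the low filter (875 at an unadjusted p under 0.05), 6 with the 5% filter, 1 at the stricter threshold, and 1 (without WT mouse 12 or 36) to 20 (without WT mouse 14) leaving out 1 mouse, with 5 without WT mouse 11 or 23 or 564Igi mouse 34 and 7 without 564Igi mouse 21. Chosen after seeing the data, leaving out mice 34 and 36 gave 0 (590 unadjusted), clones with over 50% in Tfr 6 and clones counted once 3. The 149 genes of the Tfr against activated Tfh test became 20 without the trend, 17 without the filter, 11 at the stricter threshold and 88 (without WT mouse 23) to 146 leaving out 1 mouse. The 2 CDR3 measures that passed became 1 with cells of 1 α and 1 β, where second chains cannot be counted, and the 5 cell measures became 0 with clones counted once (exact sign-flip permutation test, 2 unadjusted).

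Directions reversed with clones counted once for *Ikzf2* (-0.00804), *Cd74* (-0.11), *Ms4a4b* (0.0815), *Prkca* (0.0269), *Tcf7* (0.10), *Sh2d1a* (-0.0318), *Ly6e* (-0.10) and *Fos* (0.0021). In WT mice alone they reversed for *Cd74* (-0.0255) and *H2-Aa* (-0.00032). With 3 covariates *Rpl32* was at 0.0158. *Foxp3* was at 0.0448 with size over Tfr cells and 0.000852 in clones with over 50% in Tfr. *Ly6e* was at -0.0222 in clones of 2 to 4 cells. *Gzmk*, a granzyme at 0.02 in the main comparison, was at -0.000737 there, -0.00504 with size over Tfr cells, -0.00863 in clones with over 50% in Tfr, -0.0105 for these counted once and -0.00422 with *Foxp3* detected. The heat shock score was at -0.014 in clones with over 50% in Tfr. The cause of these changes was not tested. Depth limits low genes, since a level near 0 rests on few cells with a UMI.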
